A study of Mus musculus with 20 samples.

Results

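The genes described here are 6 of the 54838 in the mouse annotation that were read lowest in wild-type microglia, and in several cases hardly at all, while microglia of 4 other C4 genotypes held counts of them. They are Nacad, Spaca6, 3110056K07Rik, Bcr, Rnf130 and Diexf, and they were picked from this pattern with no numeric threshold. The low WT level is therefore how the genes were found, and their values against WT are given as a description with no test. All 6 were among the 12680 genes that passed the filter on low counts. There were 5 genotypes, in 20 libraries of 1 mouse each: hC4A/- (n = 5), hC4B/- (n = 4), hC4A/A (n = 2), C4-/- (n = 5) and WT (n = 4). In the labels hC4A and hC4B stand for the human C4A and C4B sequences that the mice carry, C4-/- names the loss of C4, and WT the wild type. The 3 labels with a human gene say nothing of the mouse gene. Every mouse was at postnatal day 40, and 1000 microglia were sorted per mouse from frontal cortex on high CD11b and low CD45. The labels give no strain, sex, litter or source colony for any genotype.

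C4 is a component of the classical and lectin complement pathways, and complement proteins tag synapses that microglia then engulf. The 6 genes belong to no common pathway. Nacad encodes a relative of the alpha subunit of the nascent polypeptide-associated complex, which binds new protein chains as they leave the ribosome. Spaca6 encodes a sperm membrane protein needed for the fusion of sperm and egg, and 3110056K07Rik is a long noncoding transcript. Bcr encodes a signalling protein best known in humans as a partner in the BCR-ABL fusion of leukaemia. Rnf130 encodes a membrane-bound RING ubiquitin ligase related to Goliath of Drosophila. Diexf, also named Utp25, encodes a nucleolar protein of the small subunit processome, which builds the small ribosomal subunit and is known best from yeast.

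Several properties of the libraries bear on these genes. The libraries held 855099 to 2735181 gene counts each. Microglial markers were present throughout, with all 10 of the list tested and a summed level of 4258 to 9056 CPM (counts scaled to the total of each library by the TMM method) in the 16 libraries of the other genotypes and 7213 to 9579 CPM in the 4 WT libraries. Mouse C4b itself went against the labels WT and C4-/-. It held 5 to 45 counts per library in hC4A/-, 4 to 428 in hC4B/-, 21 and 271 in hC4A/A, 7 to 157 in C4-/- and 0 to 2 in WT. It averaged 40.7 ± 41.4 CPM in libraries labelled C4-/- (SD, n = 5) and 0.383 ± 0.767 CPM in libraries labelled WT (n = 4). Genotype names below are those of the labels. A count per gene does not show which exons of C4b were read, nor whether reads of a human C4 gene were among them. Whether labels were exchanged or a deletion left counted exons was not tested. The mismatch between C4b counts and labels touches every direction given. Over 25000 genes were detected in 4 libraries (hC4A/A replicate 2, hC4B/- replicates 2 and 3, C4-/- replicate 3), against 11348 to 23912 in the other 16. The 23912 were in C4-/- replicate 1, which stays in the values given without those 4 libraries. Those 4 libraries also held reads of genes that are silent in microglia, and results are given with and without them where they matter.

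Nacad (ENSMUSG00000041073, GRCm38 chr11:6597823-6606053, minus strand, 4892 exonic bases) was not counted in WT microglia at all and was counted in 15 of the 16 other libraries. It held 27.6, 10.8, 0, 16.97 and 60.6 CPM in hC4A/- microglia, 0.854, 4.82, 11.6 and 17.5 CPM in hC4B/-, 29.0 and 5.18 CPM in hC4A/A, 2.88, 49.4, 3.93, 45.7 and 13.3 CPM in C4-/-, and 0 in each of the 4 WT libraries. Behind these values stood 577 counts in the 16 libraries and 0 counts in WT. Of the 12680 genes tested, 275 (2.17%) had no WT count, and only Nacad and Celsr3, 2 of 12680 (0.0158%), joined that to a count in at least 15 of the 16 other libraries. Celsr3 held 103 counts there in all. The cut at 15 libraries is the value of Nacad itself, so this share describes the choice of the gene. With WT set at a floor of 3 counts over the group, the mean of the 16 libraries, 18.8 ± 18.7 CPM (SD), was at least 51.0-fold higher, and at least 62.3-fold without the 4 libraries of over 25000 genes. In the 15 libraries that held it, Nacad ranged from 0.854 to 60.6 CPM.

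Spaca6 (ENSMUSG00000080316, chr17:17827158-17843009, plus strand, 7067 exonic bases) was abundant in a few libraries and nearly missing in others. It held 93.9, 0, 93.4, 0.585 and 1.36 CPM in hC4A/- microglia, 0.854, 15.7, 12.3 and 1.46 CPM in hC4B/-, 8.06 and 20.7 CPM in hC4A/A, 181, 122, 9.18, 81.1 and 2.00 CPM in C4-/-, and 1.34, 0, 1.53 and 0 CPM in WT. Only 11 of the 16 libraries lay above every WT library, so the groups overlapped. The 3 libraries with the most Spaca6 carried 61.7% of its summed CPM over the 16. Its mean over the 16 was 40.2 ± 55.9 CPM against 0.717 ± 0.832 CPM in WT (SD, n = 4), a 56.1-fold difference. In hC4B/- the mean of 7.56 ± 7.53 CPM rested on the libraries with over 25000 genes: without them it was 1.16 CPM (n = 2), 1.62-fold the WT mean.

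The noncoding transcript 3110056K07Rik (ENSMUSG00000085622, chr12:70991615-71015832, minus strand, 3153 exonic bases) was low in WT and counted in every other library. It held 22.8, 3.76, 2.75, 9.36 and 19.4 CPM in hC4A/- microglia, 13.7, 2.41, 23.8 and 9.501 CPM in hC4B/-, 10.3 and 6.48 CPM in hC4A/A, 100, 4.66, 14.4, 3.76 and 61.2 CPM in C4-/-, and 0.668, 0, 1.53 and 2.44 CPM in WT. One hC4B/- library, at 2.41 CPM, lay below the highest WT library, at 2.44 CPM, and 15 of 16 lay above all WT libraries. The mean was 19.3 ± 25.9 CPM in the 16 libraries and 1.16 ± 1.06 CPM in WT, a 16.6-fold difference. C4-/- replicate 1 alone carried 32.5% of the summed CPM over the 16.

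Bcr (ENSMUSG00000009681, chr10:75060592-75184921, plus strand, 8191 exonic bases) showed a complete separation from WT under TMM scaling. It held 18.6, 19.9, 8.24, 8.19 and 4.08 CPM in hC4A/- microglia, 45.7, 21.7, 22.5 and 3.65 CPM in hC4B/-, 8.71 and 14.3 CPM in hC4A/A, 14.4, 3.73, 20.3, 7.52 and 21.3 CPM in C4-/-, and 3.00, 2.85, 1.53 and 1.63 CPM in WT. The gap was narrow: the lowest of the 16 libraries held 3.65 CPM and the highest WT library 3.00 CPM. With plain CPM, without TMM scaling, the groups overlapped: WT replicate 1 held 3.73 CPM and hC4B/- replicate 4 held 3.025 CPM. Bcr averaged 15.2 ± 10.7 CPM in the 16 libraries and 2.25 ± 0.781 CPM in WT, a 6.74-fold difference resting on 409 counts in the 16 libraries and 19 in WT.

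Rnf130 (ENSMUSG00000020376, chr11:50025346-50104758, plus strand, 1558 exonic bases) was lower in WT but not nearly absent there. It held 31.1, 39.2, 15.8, 29.9 and 32.7 CPM in hC4A/- microglia, 75.2, 42.2, 51.7 and 24.9 CPM in hC4B/-, 17.7 and 18.1 CPM in hC4A/A, 16.1, 17.7, 38.7, 13.97 and 43.3 CPM in C4-/-, and 12.02, 12.8, 12.3 and 13.8 CPM in WT. Under TMM scaling the groups did not overlap, but the lowest C4-/- library (13.97 CPM) and the highest WT library (13.8 CPM) differed by very little. With plain CPM they overlapped: WT replicate 4 held 19.7 CPM and hC4A/- replicate 3 held 12.7 CPM. The mean of Rnf130 was 31.8 ± 16.5 CPM in the 16 libraries and 12.7 ± 0.797 CPM in WT, a 2.50-fold difference, with 104 counts in WT. Per kilobase of exon it was the most abundant of the 6 in both, at 20.4 CPM per kilobase in the 16 libraries and 8.17 CPM per kilobase in WT.

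Diexf (ENSMUSG00000016181, chr1:193091104-193130272, minus strand, 6530 exonic bases) was also separated from WT under TMM scaling, at low counts. It held 3.45, 4.30, 8.93, 1.76 and 1.70 CPM in hC4A/- microglia, 50.4, 13.3, 4.08 and 11.7 CPM in hC4B/-, 19.7 and 16.8 CPM in hC4A/A, 36.2, 2.80, 10.5, 4.30 and 3.99 CPM in C4-/-, and 1.34, 0.712, 0.767 and 0 CPM in WT. WT held 6 counts in all, and the lowest of the other libraries 3 counts, so the separation at the edge was a matter of a few reads. With plain CPM the groups overlapped: WT replicate 1 held 1.66 CPM and hC4A/- replicate 4 held 1.59 CPM. The mean was 12.1 ± 13.6 CPM in the 16 libraries and 0.703 ± 0.547 CPM in WT, a 17.2-fold difference.

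**Figure D1:**
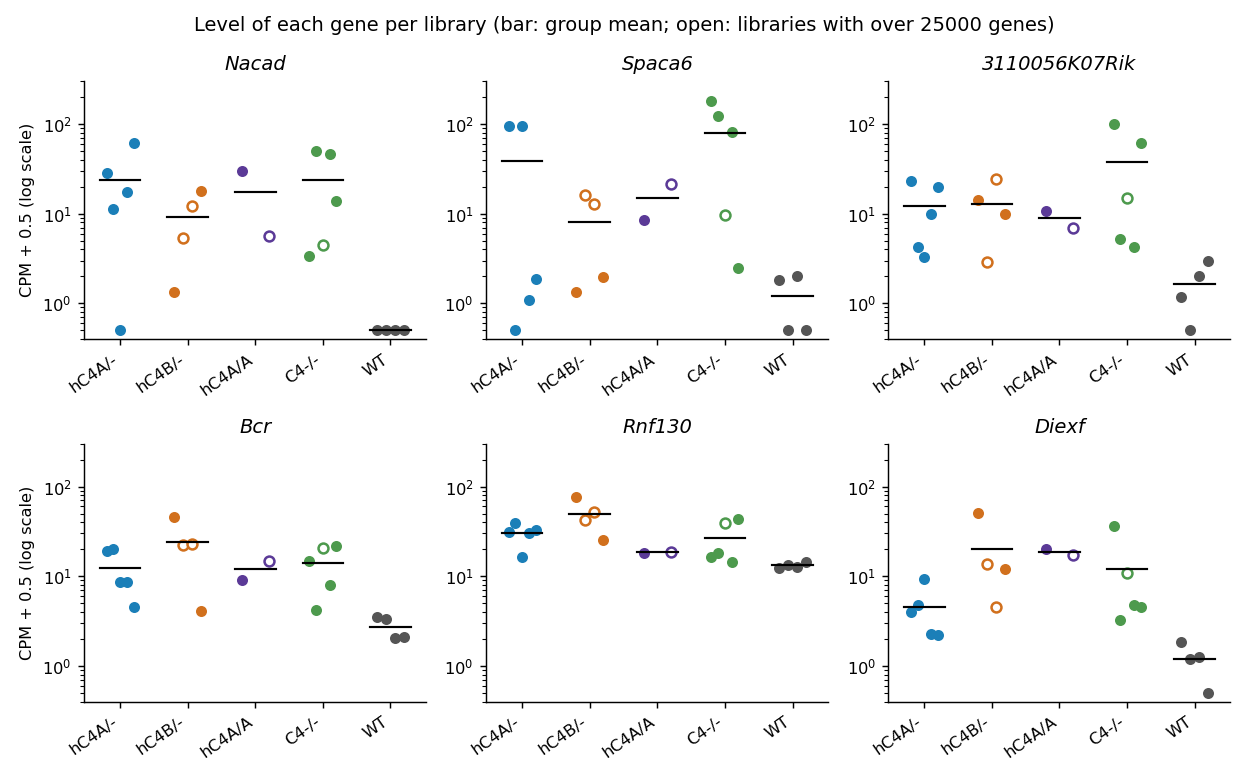
Level of each of the 6 genes in every library, as CPM plus 0.5 on a log axis, by genotype; bars are group means and open circles are the 4 libraries with over 25000 detected genes. WT is the lowest group mean for every gene, all 4 WT libraries are at 0 for Nacad, and the libraries of the other genotypes spread widely, for Spaca6 between 0 and 181 CPM.

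With plain CPM none of Bcr, Rnf130 and Diexf was fully separated from WT. The full separation these genes shared under TMM scaling was on the contrast they were picked for, so its share among all genes describes the choice. On that scaling 5 of 12680 (0.0394%) had all 16 libraries above all 4 WT libraries. The other 2 were C4b and the predicted gene Gm3435, which held 137 counts in the 16 libraries and 1 count in WT. A low WT count by itself was common, since 2676 of 12680 genes (21.1%) had at most 10 counts in the 4 WT libraries together, as did Nacad, Spaca6, 3110056K07Rik and Diexf. On the scale of mean log2 CPM with a prior count of 2, the differences between the 16 libraries and WT were 3.39 for Nacad, 2.92 for Spaca6, 2.56 for 3110056K07Rik, 2.34 for Diexf, 2.01 for Bcr and 1.09 for Rnf130. Among all tested genes these ranked 2nd, 3rd, 8th, 15th, 39th and 882nd, beside a median of 0.16 over the 12680. A difference above 1 was found in 1206 genes (9.51%). Since the genes were chosen on this contrast, these positions describe the choice. In sorted cells taken as a bulk, fewer cells that express a gene and less of its RNA per cell cannot be told apart.

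Among the 4 genotypes other than WT, which the choice did not use against each other, none of the 6 genes passed a test. Ordered by mean level, Spaca6 and 3110056K07Rik were highest in C4-/- (79.1 ± 76.0 and 36.8 ± 42.5 CPM), Bcr, Rnf130 and Diexf were highest in hC4B/- (23.4 ± 17.2, 48.5 ± 21.0 and 19.9 ± 20.8 CPM), and Nacad stood at 23.2 ± 23.2 CPM in hC4A/- and 23.0 ± 22.8 CPM in C4-/- (SD over 5, 4 or 5 libraries as above). Of the 18 steps between genotypes adjacent in these orders, WT aside, 0 exceeded the larger SD of the pair. The place of Diexf rested on hC4B/- replicate 1, without which its hC4B/- mean was 9.68 ± 4.91 CPM (n = 3), below hC4A/A (18.3 ± 2.00 CPM) and C4-/- (11.6 ± 14.1 CPM). The step down to WT was fixed by the choice of the genes and is a description: even so, for Spaca6 the hC4B/- mean exceeded the WT mean by 6.84 CPM with an SD of 7.53.

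In hC4B/- against C4-/-, edgeR's quasi-likelihood test gave Spaca6 a log2 fold change of -3.42 ± 1.39 (SE), with means of 7.56 CPM in hC4B/- and 79.1 CPM in C4-/-. Its unadjusted p was 0.0192 and its adjusted p 0.990. Without the 4 libraries with over 25000 genes, which hold most of the hC4B/- counts of Spaca6, the estimate was -6.05 with an adjusted p of 0.714. No other of the 24 tests on the 6 genes had an unadjusted p under 0.05. In the same contrast Nacad and 3110056K07Rik had negative estimates, -1.40 ± 1.13 and -1.56 ± 1.00, while Bcr, Rnf130 and Diexf had positive ones of 0.80 ± 0.83, 0.90 ± 0.65 and 0.78 ± 0.96, all with an adjusted p of 0.990. Without the 4 libraries with over 25000 genes these 3 were 1.32, 1.41 and 1.76. Several estimates rested on 1 library. Without hC4B/- replicate 1, the highest library for Bcr, Rnf130 and Diexf alike, the estimates were 0.26 for Bcr and -0.24 for Diexf. Without hC4B/- replicate 4 Bcr was at 1.31 and Diexf at 1.23, and without C4-/- replicate 3 Bcr was at 1.30, Rnf130 at 1.37 and Diexf at 1.19. Diexf was at 1.24 and 1.42 without hC4B/- replicates 2 and 3, and at 1.87 without C4-/- replicate 1. For 3110056K07Rik the estimate was -0.74 without C4-/- replicate 1 and -0.79 without hC4B/- replicate 2, and for Nacad it was -0.92 without C4-/- replicate 2.

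In hC4A/- against C4-/-, 3110056K07Rik and Diexf had the estimates farthest from 0, with log2 fold changes of -1.66 ± 0.92 and -1.53 ± 0.94 and edgeR adjusted p-values of 0.518 and 0.542. The mean level of 3110056K07Rik was 11.6 ± 9.09 CPM in hC4A/- and 36.8 ± 42.5 CPM in C4-/-, and that of Diexf 4.03 ± 2.96 CPM in hC4A/- and 11.6 ± 14.1 CPM in C4-/-. Both estimates leaned on C4-/- replicate 1, without which they were -0.85 and -0.44. Without hC4A/- replicate 3 that of 3110056K07Rik was -1.09, and without hC4A/- replicate 5 that of Diexf was -0.86. Spaca6 had -1.07 ± 1.15, which was -0.51 without C4-/- replicate 1, -0.41 without hC4A/- replicate 5 and -1.74 without hC4A/- replicate 1. Nacad, Bcr and Rnf130 lay within 0.20 of 0. In this contrast the median over all genes was itself -0.32.

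In hC4A/A against C4-/-, with 2 libraries in hC4A/A, the log2 fold changes ran from -2.48 ± 1.76 for Spaca6 to 0.65 ± 1.17 for Diexf, and every edgeR adjusted p was 1. The Diexf estimate was 1.74 without C4-/- replicate 1 and 0.41 without C4-/- replicate 2, and that of 3110056K07Rik, -2.11 ± 1.36, was -1.29 without C4-/- replicate 1. The joint test for any difference among the 4 genotypes gave adjusted p-values between 0.610 for Spaca6 and 0.923 for Nacad. These results stand beside a background of 0 of 12680 genes called (0.0%) in each of the 4 tests, with 573, 1354, 275 and 1053 genes under an unadjusted p of 0.05 for hC4B/-, hC4A/- and hC4A/A against C4-/- and for the joint test. DESeq2 called 3, 15, 0 and 12 genes in the same order and none of the 6. The spread between mice was large: the biological coefficient of variation was 1.05 for Nacad, 1.19 for Spaca6, 0.95 for 3110056K07Rik and Diexf, 0.83 for Bcr and 0.68 for Rnf130, beside a median of 1.04 over all genes. With standard errors between 0.62 and 1.76 on the log2 scale, differences of several fold between genotypes were not detectable at this number of mice.

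**Figure D2:**
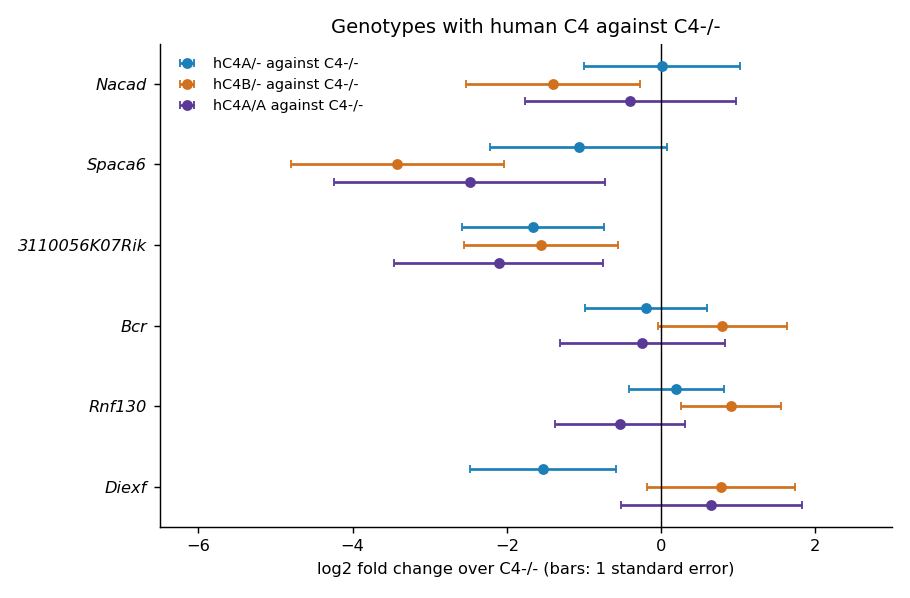
Log2 fold change of each gene in hC4A/-, hC4B/- and hC4A/A over C4-/- from the edgeR fit, with bars of 1 standard error. Estimates fall on both sides of 0, between -3.42 and 0.90, and none passed an adjusted p of 0.05.

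Whether reads of genomic DNA could stand behind the counts was examined with genes that microglia do not express. The 1967 olfactory and vomeronasal receptor genes of the annotation were read in 47.6% to 63.6% of cases in the 4 libraries with over 25000 genes. In the other 16 libraries it was 4.98% to 32.9%, highest in C4-/- replicate 1. WT libraries detected 5.34% to 24.3% of them. Reads that overlapped no annotated exon took 21.8% to 42.1% of all reads in the 16 libraries of the other genotypes and 24.4% to 39.9% in WT. Such reads can lie in introns as well as between genes, so they do not single out genomic DNA. The 13 genes listed as satellite-like, Gm10800 among them, took 13.3% to 81.0% of gene counts in the 16 libraries of the other genotypes. In WT they took 15.4% to 53.2%, and in the 4 libraries with over 25000 genes 49.9% to 81.0%. Their counts stay in the totals behind CPM, except in the alternative that removed them. On these measures WT lay within the range of the other genotypes. For receptor and satellite-like genes the top of that range came from the 4 libraries with over 25000 genes, none of them WT. The median share of receptor genes detected was 8.19% in WT and 10.1% in the 16 libraries. Whether WT and the other genotypes carried the same background was not tested.

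Each gene was then set against the count its exons would hold at the receptor genes' rate per kilobase in the same library. Reads mapped to several places are left out of the counts. Where receptor genes resemble each other the rate can therefore be too low, and the excess over that rate too high. The size of this effect was not tested. In the 12 libraries of the other genotypes with up to 25000 genes, Nacad held 546 counts where that rate gives 4.74, a 115-fold excess. Spaca6 held 906 where it gives 6.85 (132-fold), and 3110056K07Rik 472 where it gives 3.06 (154-fold). Rnf130 held 691 counts where it gives 1.51 (458-fold), Bcr 316 where it gives 7.94 (39.8-fold) and Diexf 309 where it gives 6.33 (48.8-fold). These are sums, and for some genes a few libraries made most of them. Spaca6 was at 0 in 1 of the 12 libraries and at 3.29 to 6.47 times the rate in 5 others, with a median of 28.4. Nacad was at 0 in 1 library and at 4.63 and 8.47 times the rate in 2 others, with a median of 99.3. Diexf was at 5.08 to 8.10 times the rate in 3 libraries and Bcr at 9.72 times in 1, while 3110056K07Rik and Rnf130 were over 10-fold above it in all 12.

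In the 4 libraries with over 25000 genes the counts lay nearer to that rate. There Nacad held 31 counts where the rate gives 11.4 (2.71-fold), Diexf 46 where it gives 15.3 (3.01-fold), Spaca6 61 where it gives 16.5 (3.69-fold), Bcr 93 where it gives 19.2 (4.85-fold) and 3110056K07Rik 64 where it gives 7.37 (8.68-fold). Rnf130 stayed 50.5-fold above it, at 184 counts. The fold over WT without these 4 libraries was 62.3 (a lower bound) for Nacad, 68.1 for Spaca6, 18.8 for 3110056K07Rik, 6.07 for Bcr, 2.34 for Rnf130 and 17.7 for Diexf. In WT the same ratio was 0 for Nacad, where the rate gives 1.49 counts over the 4 libraries, 2.79 for Spaca6, 3.02 for Diexf, 7.63 for Bcr, 10.4 for 3110056K07Rik and 220 for Rnf130. WT counts of Spaca6 and Diexf, 6 of each, were thus within a few counts of the silent level, while Rnf130 in WT was far above it.

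**Figure D3:**
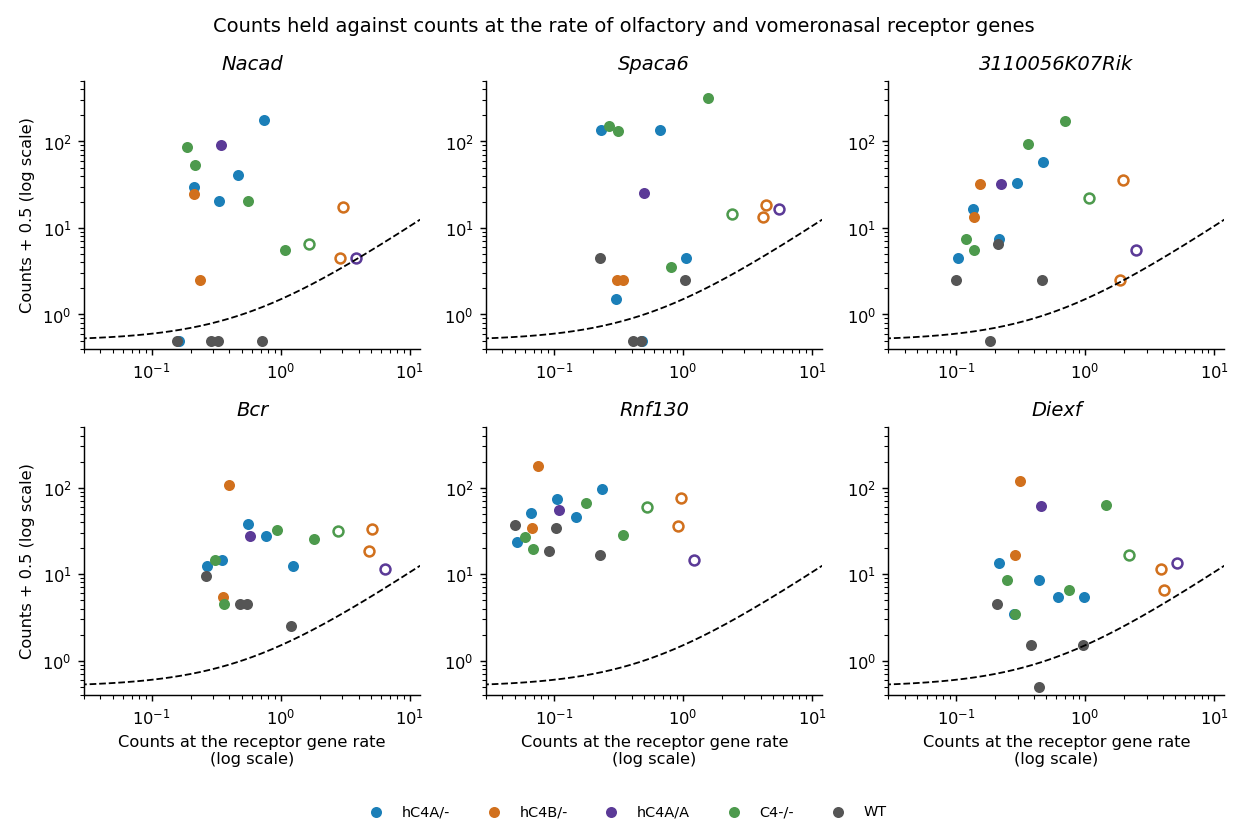
Counts of each gene per library (plus 0.5, log axis) against the counts its exons would hold at the rate of the 1967 olfactory and vomeronasal receptor genes (log axis); the dashed line marks equality, colours mark genotype and open circles the 4 libraries with over 25000 genes. Most libraries of the other genotypes lie far above the line, the open circles lie nearer to it, and for Nacad the WT libraries sit at 0.

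Strand does not separate the 6 genes from genes that overlap them, because the libraries keep no strand. The 2 stranded count columns shared the reads of each gene nearly evenly, with 47.8% to 50.7% on the first, and summed to the unstranded count for 5 genes. For 3110056K07Rik the sum was 548 against 546, so 2 reads were withheld as ambiguous with Psma3. Psma3, a proteasome subunit gene, overlaps 3110056K07Rik on the opposite strand, and without strand the reads of the pair cannot be told apart where their exons meet. It did not share the pattern: Psma3 averaged 567 ± 57.5 CPM in hC4A/-, 373 ± 358 in hC4B/-, 292 ± 399 in hC4A/A, 706 ± 419 in C4-/- and 642 ± 323 CPM in WT. Spaca6 spans the microRNA genes Mir99b, Mirlet7e and Mir125a and Rnf130 spans Mir340, each at 0 counts in all 20 libraries.

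Strain background was examined by position. The 6 genes lie on 5 chromosomes, and Spaca6 alone is on chromosome 17 with C4b, 16.9 Mb away. The tested genes within 1 Mb of each were compared with WT in the same way. Around Nacad 16 of 23 were above 0 (median 0.18) and around Bcr 9 of 14 (median 0.60). Around Rnf130 it was 11 of 20 (0.16) and around Diexf 4 of 8 (0.12). Around Spaca6 5 of 11 were above 0 (median -0.24) and around 3110056K07Rik 2 of 11 (-0.46), beside 57.2% and a median of 0.16 over all tested genes. None of these 87 neighbours had all 16 libraries above all WT libraries, beside 5 of 12680 (0.0394%) over all tested genes. At that share a set of 87 genes would seldom hold any.

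The nearest tested genes differed less than the 6 genes did, which the choice of the 6 on this difference made likely in advance. Beside Nacad stood Ccm2 (a log2 difference to WT of 0.85) and Tbrg4 (1.22), beside Bcr Rab36 (0.75) and Specc1l (-0.43), and beside Rnf130 Rasgef1c (0.86) and Tbc1d9b (-1.04). Beside 3110056K07Rik stood Actr10 (-0.97) and Arid4a (-0.42), and beside Diexf Sertad4 (0.88) and A130010J15Rik (-1.31).

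Around Spaca6 the differences to WT were large in both directions. The formyl peptide receptor gene Fpr2, next to it, had a difference of -2.40, with 2.70 ± 5.75 CPM in the 16 libraries and 27.9 ± 42.7 CPM in WT. The antisense gene Gm26873, 0.437 Mb before it, had 2.86, with 43.5 ± 38.5 CPM in the 16 libraries and 3.03 ± 3.69 CPM in WT. Over chromosome 17 as a whole 7 of 635 tested genes (1.10%) exceeded a difference of 2, beside 41 of 12680 (0.323%) in all. Another 7 were below -2, beside 82 (0.647%) in all. Spaca6, Gm26873, Gm3435 and C4b were among the 7 above 2, as were Kctd5, Nelfe and Gpatch11, and these lay from 19.7 Mb before C4b to 44.1 Mb after it. This count by chromosome was made after the values had been seen, and no test was made of it.

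**Figure D4:**
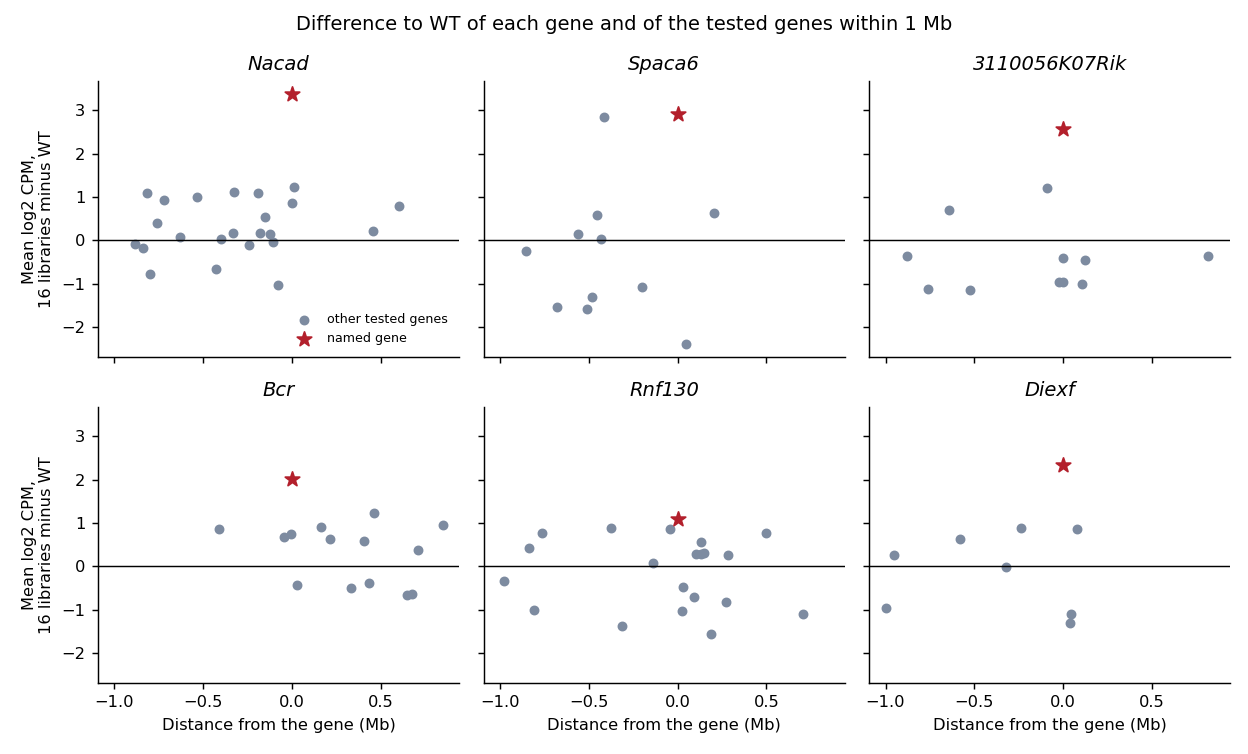
Difference in mean log2 CPM (16 libraries of the other genotypes minus WT) of each gene (star) and of the tested genes within 1 Mb (circles), against distance in Mb. The star stands above all its neighbours in every panel, and at Spaca6 1 neighbour, Gm26873, comes near it at 2.86. The starred genes were chosen on this difference.

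Genes known to differ between laboratory strains were read too. Nnt, partly deleted in C57BL/6J, averaged 43.5 ± 37.1 CPM in hC4A/-, 19.6 ± 24.3 in hC4B/-, 28.9 ± 20.7 in hC4A/A, 42.3 ± 25.9 in C4-/- and 63.7 ± 18.99 CPM in WT. A count per gene does not show whether the deleted exons were read. H2-Ea-ps, which lacks its promoter in the H2-b haplotype, held 0 counts in hC4A/-, 3 in hC4B/-, 1 in hC4A/A, 3 in C4-/- and 0 in WT, too few to tell genotypes apart. The identifiers in the names of the WT libraries alone begin with a letter, and what this denotes is not stated, so any difference in source between those mice and the rest cannot be told apart from the WT genotype. The part of strain background in the levels of the 6 genes was not tested beyond these values.

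Relatives of the 6 genes were read for the same difference, the 6 genes themselves left out of the counts. Naca, the alpha subunit to which Nacad is related, averaged 45.2 ± 36.3 CPM in the 16 libraries and 36.3 ± 9.97 CPM in WT, and the 3 relatives tested (Naca, Btf3 and Btf3l4) had a median log2 difference to WT of 0.14. Abr, the close paralog of Bcr, had 29.7 ± 32.8 CPM in the 16 libraries and 6.64 ± 3.76 CPM in WT, a difference of 1.55. Among the ubiquitin ligases related to Rnf130, 3 of the 5 tested were above 0, with a median of 0.23, and Rnf13 had 64.9 ± 26.8 CPM in the 16 libraries and 72.9 ± 39.5 CPM in WT.

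Of 28 genes of the small subunit processome tested beside Diexf, 12 were above 0 and 16 below, with a median of -0.07. Rcl1 (1.36), Utp4 (1.18) and Nop14 (1.11) lay on the side of Diexf, and Imp3 (-1.16) and Heatr1 (-0.96) opposite to it. Of the sperm and egg fusion genes beside Spaca6, Cd9 alone was tested, with a difference of -0.74. Izumo1, the sperm protein that binds the egg, held 25 counts in the 16 libraries and 3 in WT. The testis marker list had 0 of 8 genes tested and a summed level of at most 12.96 CPM in the 16 libraries and 2.30 CPM in WT. No gene of these families was called among the 4 genotypes other than WT, where 0 of all 12680 genes tested were called in any of the edgeR tests.

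Of the marker lists for other cells, that of neutrophils stood farthest from WT. All 7 tested neutrophil markers were below 0, with a summed level of 0 to 176 CPM in the 16 libraries and 102 to 1424 CPM in WT. Neuronal markers summed to 2.69 to 116 CPM in the 16 libraries and 3.07 to 35.1 CPM in WT, and astrocyte markers to 58.5 to 752 CPM in the 16 and 317 to 629 CPM in WT. Oligodendrocyte markers summed to 49.2 to 362 CPM in the 16 libraries and 111 to 167 CPM in WT. Border macrophage markers summed to 4.30 to 99.5 CPM in the 16 libraries and 10.7 to 29.4 CPM in WT, and endothelial markers to 2.92 to 49.0 CPM in the 16 and 5.69 to 66.4 CPM in WT. No listed marker was at 0 in all 20 libraries. Their part in the levels of the 6 genes was not tested.

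Across mice the 6 genes formed no single pattern once WT was set aside, although Bcr and Rnf130 ran together. Over the 16 libraries, Spearman correlations of log2 CPM between pairs of them ran from -0.626 (Nacad and Diexf) to 0.747 (Bcr and Rnf130), with Nacad and Bcr at -0.603 and Spaca6 and Rnf130 at -0.574. Libraries share depth and detection, so these are descriptions. Genes with the most similar pattern were ranked over all 20 libraries, so the low WT values on which the 6 genes were chosen raise these correlations, and the value over the 16 libraries without WT follows each. Bcr and Rnf130 were at 0.860 over the 20 and 0.747 over the 16. For Bcr, Fam104a (0.851 and 0.824) and Ppp1r14b (0.833 and 0.700) came next, and for Rnf130, Gm3435 (0.782 and 0.576) and Atp6v0c-ps2 (0.768 and 0.674). Nearest to Spaca6 were Spata46 (0.830 and 0.779), Gm37678 (0.818 and 0.908) and Pms2 (0.776 and 0.644). Nearest to Diexf were Maged1 (0.797 and 0.850), Zfp551 (0.791 and 0.696) and D430013B06Rik (0.740 and 0.701). Nearest to 3110056K07Rik were Arl6ip5 (0.788 and 0.756), AI413582 (0.774 and 0.685) and Sri (0.750 and 0.726). Nearest to Nacad were Rnf169 (0.717 and 0.662), Gm26522 (0.714 and 0.865) and Gm26873 (0.714 and 0.671), the last being the gene that lies near Spaca6.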

How the data were processed

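RNA of sorted microglia was converted to cDNA by template switching, amplified and made into libraries with a Nextera kit, per the labels' protocols. The deposited files hold raw counts per gene as the authors made them; STAR, edgeR and GRCm38 are named in the submitters' processing notes, with no versions, and the annotation is not given in the sources used here. Gene names came from a GENCODE annotation of GRCm38 (54809 of 54838 matched). The unstranded column was used. STAR's summary lines were left out: unmapped reads (14.8% to 42.1% of a library's reads), reads mapped to several places (13.2% to 28.9%), reads overlapping no annotated exon (21.8% to 42.1%) and ambiguous reads (0.897% to 5.86%). A deposited matrix named as normalized held 24057 genes whose 481140 values all equal the raw counts.

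Groups came from sample titles. All 20 libraries entered 1 edgeR 4.0.16 quasi-likelihood fit (robust, filterByExpr by genotype, TMM, 1 coefficient per genotype, 15 residual degrees of freedom, R 4.3.3), with Benjamini-Hochberg adjustment over 12680 genes and a threshold of 0.05. Standard errors are the log2 fold change over the square root of F. The code was tested on simulated data. Reads carry no molecular identifiers, so floors cover counting error only. Each library was taken as 1 mouse. Replicate numbers did not pair libraries: over 33 pairs with the same number, correlations of deviations had a median of 0.01 and 5 exceeded 0.1. Alternatives were RLE scaling, DESeq2 1.42.0, no filter, removal of 13 satellite-like genes, of the 4 libraries with over 25000 genes and of WT, the summed stranded columns, plain CPM, a replicate block and leaving out each library.

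The named genes are the 6 genes, their family lists, the nearest tested gene on each side, the 3 genes closest by Spearman correlation, and C4b, Nnt and H2-Ea-ps; Celsr3, Gm3435, Psma3, the microRNA genes and the chromosome 17 genes were added after their values were seen. The genes, families and marker lists were chosen with earlier results of these data known. One group of genes on the lists is not reported here.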

Additional observations from a re-analysis of the deposited data

Results flagged for a closer look

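Diexf in C4-/- replicate 1 stood apart from the rest of its group, at 36.2 CPM where the other 4 C4-/- libraries held 2.80, 10.5, 4.30 and 3.99 CPM. The gap to the next library was 0.77 of the group's range. Of the 23 groups of 4 or 5 libraries examined over the 6 genes, 1 passed the 95% limit of Dixon's gap test, and chance gives about 1 in 20. The limit is higher for 4 libraries than for 5, and Diexf in hC4B/-, where replicate 1 made a gap of 0.802 of the range, stayed under it. C4-/- replicate 1 also held the most Spaca6 (181 CPM) and 3110056K07Rik (100 CPM) of all 20 libraries.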

How the results depend on the processing

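None of the 672 adjusted p-values of the 6 genes under the alternatives was under 0.05, and the lowest was 0.114, for Spaca6 in the joint test with no filter. Counts of all genes called, 0 in edgeR, moved to 15 with DESeq2 and 53 with no filter for hC4A/- against C4-/-, to 3 and 16 for hC4B/- against C4-/-, and to 12 and 277 for the joint test, which had 7 with RLE scaling. Leaving out 1 library moved the joint count to between 0 and 19, highest without hC4B/- replicate 4, and left the other counts at 0. The estimate of Nacad in hC4A/- against C4-/-, 0.02, changed sign to -0.24 with RLE scaling, -0.24 with DESeq2, -0.0071 with no filter, -0.092 without satellite-like genes, -0.38 without the 4 libraries with over 25000 genes, -0.078 without WT and -0.080 with summed strands; leaving out 1 library gave -0.66 to 0.49. That of Bcr, -0.19, changed to 0.28 with no filter, 0.12 without satellite-like genes, 0.34 without the 4 libraries, 0.071 without WT and 0.079 with summed strands, with -0.47 to 0.36 on leaving out 1 library. In hC4A/A against C4-/-, Bcr changed to 0.084 with RLE scaling and 0.057 with DESeq2, with -0.58 to 0.29 on leaving out 1 library, and Nacad ranged from -2.11 to 0.38. Diexf in hC4B/- against C4-/- ranged from -0.24 to 1.87. With the replicate block, the numbers of the titles being only numbers, calls stayed at 0, Nacad changed to -0.21 in hC4A/- and 0.071 in hC4A/A, and 6 libraries correlated best with their own number. The estimate of Spaca6 in hC4B/- against C4-/- was -6.05 without the 4 libraries. The cause of these changes was not tested. RLE scaling moved the median of all genes to 0.23 and 0.21 in hC4B/- and hC4A/A against C4-/-, where TMM gave -0.03 and -0.02.

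On the log2 scale, the ratio of mean CPM in the 16 libraries over WT stayed above 0 for all 6 genes in every alternative run: 5.02 to 5.96 for Nacad (a lower bound), 5.40 to 6.50 for Spaca6, 3.58 to 4.72 for 3110056K07Rik, 2.45 to 2.92 for Bcr, 1.08 to 1.49 for Rnf130 and 3.69 to 4.39 for Diexf. Depth limits the WT values: 0 to 19 counts over 4 libraries stand behind all but Rnf130.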
